A study of Mus musculus with 4 samples.

Results

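Dux and 9 other genes, Zfp352, Arg2, Tmem92-ps, Gm8300, Zfp809, Gm6189, Cml2, Apol7b and Eif1a, were examined in mRNA-seq of mouse embryonic stem cells (mESCs), as 10 of the 37310 genes of the deposited table. They were chosen by what is known of their expression in 2-cell embryos or by a strong rise measured between the same libraries that are compared here. Their own differences between the libraries are therefore given as a description, with no test. The cells were JM8 mESCs, a line of the C57BL6/N strain, grown without feeder cells on gelatin with LIF and 2 inhibitors (2i), 1 µM PD0325901 against Mek and 3 µM CHIR99021 against Gsk3. The series holds 2 libraries labelled wild-type and 2 labelled Bmal1-/-, and all 4 came from cells grown in these conditions. Bmal1-/- cells were made with CRISPR/Cas9 and are 1 clone with a different insertion or deletion on each allele of Bmal1, so that other differences between that clone and the parental line cannot be told apart from the genotype. The question is whether Dux and genes of the 2-cell state differed between the labels.

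Dux encodes a transcription factor with a pair of homeodomains that turns on genes and MERVL retroviral elements when the embryonic genome is first transcribed. In mESC cultures a small, changing share of cells passes through a similar state, called 2-cell-like, in which Dux, Zfp352, the Zscan4 genes and MERVL elements are transcribed. In the other cells Dux is kept silent by chromatin factors, among them Trim28, histone methyltransferases and a variant Polycomb complex, whereas Dppa2 and Dppa4 are needed to turn it on. The libraries are bulk RNA, in which more cells of a type and more RNA per cell cannot be told apart.

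The libraries held 21504265 to 23329034 reads on genes, and 1 read was worth 0.939 to 1.06 of the normalized value, which is the read count over a scaling factor of the library. The targeted gene, listed as Arntl, measured 678 and 733 in wild-type mESCs against 556 and 590 in the libraries labelled Bmal1-/-. Since its mRNA was found in each of the 4, it cannot be used to check which genotype a library has, and only labels are given here. Markers of mESCs were abundant in all libraries: 9 of 9 pluripotency genes passed the filter of a mean of 10, with summed normalized values of 156823 and 159063 in wild-type mESCs and 162181 and 163960 in the others. Summed values of 7 primitive endoderm markers were 177 to 193 in wild-type mESCs and 195 to 198 in the others, but within that list Sox7 fell and Sox17 rose (log2 fold changes of -2.41 and 1.27, adjusted p = 6e-06 and 0.002 from limma). Those of 6 fibroblast markers were 94.8 to 108 and 124 to 142. Trophoblast markers (8 genes) summed to 1815 and 1831 in wild-type mESCs and 974 and 958 in the others, a drop that lay in Tcfap2c (1429 and 1444 against 576 and 541, log2 fold change -1.36, adjusted p = 1.7e-13 from limma). The other 7 trophoblast markers summed to 387 and 388 in wild-type mESCs and 398 and 418 in the others. Among them Cdx2 was lower, at 63.2 and 65.9 in wild-type mESCs against 39.5 and 37.2 in the others. With limma its difference was -0.74 in log2, under the 2-fold threshold, at an adjusted p of 0.0043. Ascl2 was higher by 0.58 (adjusted p = 0.029 from limma), and Krt8 and Krt18 did not pass. In 4 of the 8 markers both libraries labelled Bmal1-/- were above both wild-type libraries, beside 34.6% of all genes tested. Neural markers (6 genes) summed to 4361 and 4118 against 2553 and 2377. Of the 5 tested, 3 (Tubb3, Mtap2 and Pax6) had a log2 fold change under -1 and an adjusted p under 0.05 (limma), beside 1.45% of all genes tested. The fibroblast genes Col3a1 and Postn were at 0 in all wild-type libraries. Whether these lists play a part in the differences of Dux and its companions was not tested.

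Promoter sequences are shown for Zfp352 and for the Dux array, since they are the only entries for these genes in which a searched motif was found. The RefSeq promoter table (GRCm38.p6) had entries for Zfp352, Zfp809 (2 entries), Cml2 (as Nat8f2), Apol7b and Duxf3, so that 5 of the 10 genes had an entry. The 250 bases before the start of Zfp352 lie on the plus strand at chr4:90218570-90218819. The 250 bases before the start of Duxf3, a copy of Dux, lie on the minus strand at chr10:58233090-58233339. Capitals mark TAATCC in the first sequence and, in the second, the reverse complement of ATTCAATCA, letters of the motif that Dux is known to bind.
Zfp352: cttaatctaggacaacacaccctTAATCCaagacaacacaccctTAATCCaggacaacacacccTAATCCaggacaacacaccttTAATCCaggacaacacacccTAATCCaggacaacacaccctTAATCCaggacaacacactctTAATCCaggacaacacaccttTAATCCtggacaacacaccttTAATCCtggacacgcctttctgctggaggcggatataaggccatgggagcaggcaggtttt
Duxf3: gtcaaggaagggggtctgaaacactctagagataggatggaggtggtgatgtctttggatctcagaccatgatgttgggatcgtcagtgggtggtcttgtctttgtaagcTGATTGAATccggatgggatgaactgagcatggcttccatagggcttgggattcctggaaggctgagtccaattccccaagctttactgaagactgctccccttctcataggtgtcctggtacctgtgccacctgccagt
TAATCC occurred 9 times in the Zfp352 window, all on the plus strand and within a tandem repeat between 227 and 61 bases before the start. Of the 32851 promoter windows of 300 bases in the table, 7.06% held TAATCC on either strand, and only that of Zfp352 held 8 or more. This motif was chosen after the sequence had been seen. ATTCAATCA was found 1 time in the Duxf3 window, 140 bases before the start and on the opposite strand, against 60 of all windows (0.183%). It was in none of the windows of Zfp352, Zfp809, Cml2 and Apol7b. The Duxf3 window matched the NCBIM37 genome exactly at 1 place, which lies 7383 bases before the start of the gene listed as Dux and 1076 bases before that of its neighbour Gm10807. It is thus the window of another copy in the array. CACGTG, the E-box that Bmal1 binds with Clock, was in none of the 6 windows and in 7.15% of all windows.

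Dux was hardly detected in either group. Dux (ENSMUSG00000058537) is listed on chromosome 10 from 57685047 to 57688454 on the minus strand (NCBIM37), with 2 exons. It had 2 reads and 1 read in wild-type mESCs and 13 and 12 in the libraries labelled Bmal1-/-, which are normalized values of 2.11 and 1.06 against 12.2 and 11.4. Both libraries labelled Bmal1-/- were above both wild-type libraries, but the wild-type counts lie at or under the floor of 3 reads. The ratio of the counts was 7.46, with an exact 95% interval of 2.27 to 38.6 that covers counting error only. With a mean of 6.71 over the 4 libraries, Dux was under the filter of 10 and did not enter the fit across genes. Its log2 fold change of value + 1 was 2.34 and depended on the pseudocount, falling to 0.92 with a pseudocount of 10.

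Zfp352, a zinc finger gene transcribed in 2-cell embryos, was higher in the libraries labelled Bmal1-/-. Zfp352 (ENSMUSG00000070902, chromosome 4 from 89885511 to 89892393, plus strand) measured 27.4 and 19.1 in wild-type mESCs and 279 and 247 in the others. These are means of 23.3 ± 5.85 and 263 ± 22.6 (SD, n = 2 libraries each) and a log2 fold change of 3.46. Tmem92-ps, a 2-cell marker gene that RefSeq lists as Tmem92, reached the highest value of the genes that were low in wild-type cells. Tmem92-ps (ENSMUSG00000075610, chromosome 11 from 94638531 to 94644017, minus strand) was at 59.0 and 80.7 in wild-type mESCs and at 850 and 822 in the others, a log2 fold change of 3.58. In both genes the groups were far apart compared with the gap between replicates.

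Arg2 and Gm8300 differed by similar factors. Arg2 (ENSMUSG00000021125, chromosome 12 from 80231764 to 80257288, plus strand), the mitochondrial arginase that splits arginine into ornithine and urea, was at 21.1 and 31.9 in wild-type mESCs and at 313 and 257 in the others. Its log2 fold change was 3.40, and its mean was 10.8-fold higher. Gm8300 (ENSMUSG00000079034, chromosome 12 from 88855266 to 88859203, plus strand), which encodes a protein like the translation initiation factor Eif1a, was at 35.8 and 44.6 against 401 and 442. Its log2 fold change was 3.37, or 10.5-fold. The end of Arg2 overlaps Vti1b on the opposite strand, whose values were 801 and 839 in wild-type mESCs and 674 and 731 in the others and so went the other way.

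The 3 genes with the highest folds were nearly silent in wild-type cells. Gm6189 (ENSMUSG00000090637, chromosome 1 from 80379679 to 80381763, minus strand), a single-exon gene similar to the mRNA export factor Gle1 that RefSeq calls a pseudogene, was at 12.6 and 5.31 in wild-type mESCs and at 242 and 214 in the others. Its log2 fold change of 4.62 was the fourth highest of the 14510 genes tested. Cml2 (ENSMUSG00000033634, chromosome 6 from 85815416 to 85819152, minus strand), which encodes an N-acetyltransferase-like protein, was at 6.32 and 12.7 against 223 and 194, with a log2 fold change of 4.38. Apol7b (ENSMUSG00000068252, chromosome 15 from 77252640 to 77277922, minus strand), of the apolipoprotein L family, was at 5.27 and 5.31 against 124 and 116, with a log2 fold change of 4.27. The wild-type libraries held 17, 18 and 10 reads of these 3 genes in all, so that the exact 95% counting intervals of their ratios were wide, 15.7 to 43.9 for Gm6189, 13.7 to 37.2 for Cml2 and 12.2 to 48.0 for Apol7b. In all 3, both libraries labelled Bmal1-/- were above both wild-type libraries, beside 34.6% of all genes tested. This is a description only, since the 3 genes passed the filter only through the libraries in which they were high.

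Zfp809 and Eif1a stood apart from the other genes. Zfp809 (ENSMUSG00000057982, chromosome 9 from 22030274 to 22047641, plus strand), a KRAB zinc finger protein that directs Trim28 to retroviral DNA, was already well expressed in wild-type mESCs, at 545 and 529. In the libraries labelled Bmal1-/- it was at 1200 and 1304, 2.33-fold higher (log2 fold change 1.22). Eif1a (ENSMUSG00000057561, chromosome 18 from 46757358 to 46769879, plus strand), a translation initiation factor that acts in every cell, was not higher at all. Its values were 6931 and 6902 in wild-type mESCs and 5978 and 6435 in the others, a ratio of 0.897 and a log2 fold change of -0.16. The 2 libraries labelled Bmal1-/- differed from each other by more than counting error for Eif1a (6364 and 6748 reads, adjusted p = 5.1e-04 in an exact 2-sided binomial test, Benjamini-Hochberg adjusted over 20 such tests). None of the other 19 replicate pairs of the 10 genes passed that threshold. This cannot show that they varied by counting error alone, since pairs with few reads can hardly pass. The wild-type pair of Dux, for example, held 2 reads and 1 read. Before adjustment, the pairs labelled Bmal1-/- of Arg2 and Zfp809 had p = 0.018 and 0.034 in the same binomial test. Eif1a thus did not share the rise of the other genes.

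Of the 10 genes, 9 had a log2 fold change above 1 and 1 was lower, with a median log2 fold change of 3.43 against -0.03 for all genes tested. Both libraries labelled Bmal1-/- lay above both wild-type libraries in 9 genes and below in 1, which over all genes tested occurred in 34.6% and 41.4%. Gm6189, Cml2 and Apol7b had wild-type means under 10 and passed the filter only through the libraries in which they were high. Nothing is read from the counts and shares above, and calls are not counted, since the genes were chosen on this difference. The 7 genes with a log2 fold change above 3 had only 347 wild-type reads in all.

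Per kb of exon the 10 genes kept the same order in both labels. From the highest it was Eif1a, Zfp809, Tmem92-ps, Gm8300, Arg2, Zfp352, Gm6189, Cml2, Apol7b and Dux. Eif1a stood at 2402 per kb in wild-type mESCs, at the 96.0th percentile of the genes tested, and at 2156 in the others. Tmem92-ps moved from 31.9 to 382 per kb, from the 26.9th to the 74.7th percentile, and Zfp352 from 9.99 to 113, from the 12.6th to the 46.8th. Dux moved from 0.586 to 4.37 per kb and stayed under the lowest of the other 9 genes, at the 3.58th percentile in the libraries labelled Bmal1-/-. Among the 9 pairs of neighbours in the order, the libraries overlapped in 3 pairs in wild-type (Gm8300 and Arg2, Gm6189 and Cml2, Cml2 and Apol7b) and in 2 pairs in the others (Gm8300 and Arg2, Zfp352 and Gm6189). The order of these pairs is not larger than the spread between libraries. The places of Gm8300, Dux and Apol7b in the order, and their percentiles, are also uncertain. Parts of their exons occur elsewhere in the genome, as given below, and how reads from such parts were counted is not known here.

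**Figure D1:**
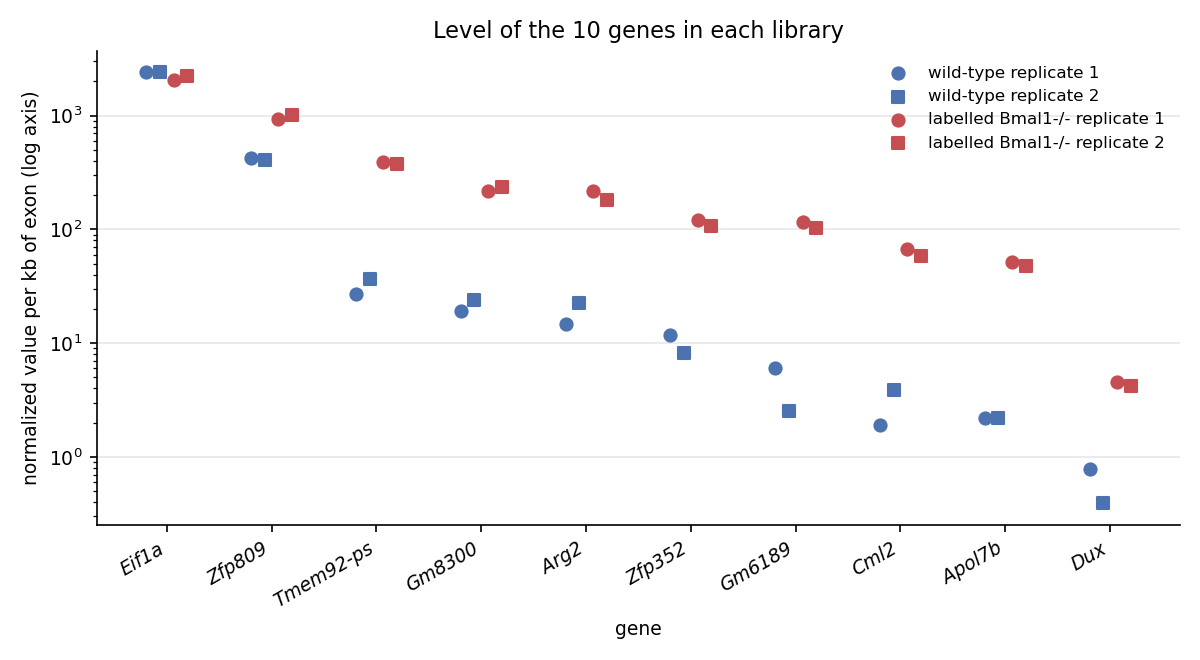
Normalized value per kb of exon (log axis) of the 10 genes in each of the 4 libraries, ordered by the wild-type mean; circles and squares are replicates 1 and 2, blue for wild-type and red for the libraries labelled Bmal1-/-. The red points lie above the blue ones for 9 genes and below for Eif1a, and Dux is lowest, at 0.393 to 0.779 in wild-type and 4.23 to 4.52 in the others.

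How far each gene is a single copy was measured on the NCBIM37 genome. Every window of 75 bases, the length of 1 read, inside the exons of a gene was searched on both strands of the genome, and the windows found at 1 place only were counted. All windows of Arg2 and of Zfp809 were found at 1 place (100%), and so were 99.6% of those of Gm6189, 98.2% of Eif1a and 97.0% of Zfp352. Cml2 had 88.6% and Tmem92-ps 86.8%. Gm8300 had 76.0%, Dux 51.5% and Apol7b 35.3%, so that these 3 are not single-copy genes over much of their length. Of the windows of Dux, 17.5% were also found in Gm10807 and 9.82% in 4933403O03Rik, neighbours in the array, and 37.1% at places of chromosome 10 outside annotated genes. Gm8300 shared the most windows with BB287469 (18.7%), and Cml2 shared 11.4% of its windows with 1700019G17Rik. Of the windows of Apol7b, 61.6% were also found in Apol7e, which had values of 0 in both wild-type libraries and of 1.88 and 0 in the others. How reads that match several places were counted is not given in the sources used here, so that the values of Dux, Gm8300 and Apol7b are uncertain.

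**Figure D2:**
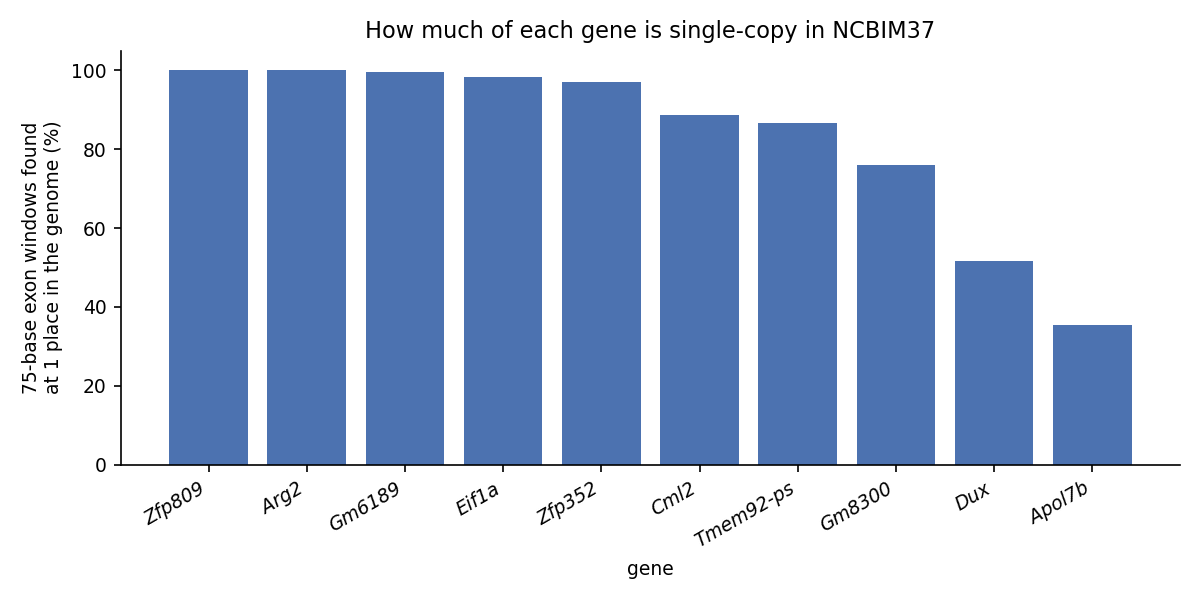
Share of the 75-base windows inside the exons of each gene that were found at 1 place of the NCBIM37 genome (bars, percent). Arg2 and Zfp809 reach 100%, and Gm8300, Dux and Apol7b have the lowest shares, at 76.0%, 51.5% and 35.3%.

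The nearest relatives of the genes, found by comparing the proteins encoded by the annotated transcripts, moved with them in some families and not in others. Gm8300 belongs to a tandem family on chromosome 12: 8 other genes listed there encode proteins 94.4% to 97.2% identical to it. Of these 8 genes, 7 were tested and had log2 fold changes of 3.08 to 3.97. One of the 7, Gm4027, passed the filter only through the libraries in which it was high (3 and 8 reads against 96 and 110), and the other 6 rose (limma), beside 5.75% of all genes tested. The eighth, Gm2046, was under the filter, with values of 0 and 2.12 in wild-type mESCs and 15.0 and 21.9 in the others. Gm5662, the most abundant copy, was at 162 and 208 in wild-type mESCs and at 2050 and 2152 in the others (log2 fold change 3.51, standard error 0.09, adjusted p = 4e-17 from limma, Benjamini-Hochberg adjusted). Over the 8 genes the normalized values summed to 258 and 343 in wild-type mESCs and to 3454 and 3635 in the others. These genes are not separate observations. A gene named BB287469 spans Gm2016, which overlaps Gm2075. Windows of Gm8300 were also found in Gm2075 (15.4%), Gm5662 (9.81%) and Gm2016 (8.64%). The values of single copies are thus uncertain, as is that of Gm8300. Eif1a itself encodes a protein 95.1% identical to that of Gm8300 and was lower, as given above. Eif1ax, the X-linked gene whose protein is 98.6% identical to that of Eif1a, was at 2853 and 3071 against 2164 and 2353 (log2 fold change -0.39, adjusted p = 2.2e-06 from limma), which is under the 2-fold threshold. Only 1.76% of the windows of Eif1a were also found in the family on chromosome 12.

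**Figure D3:**
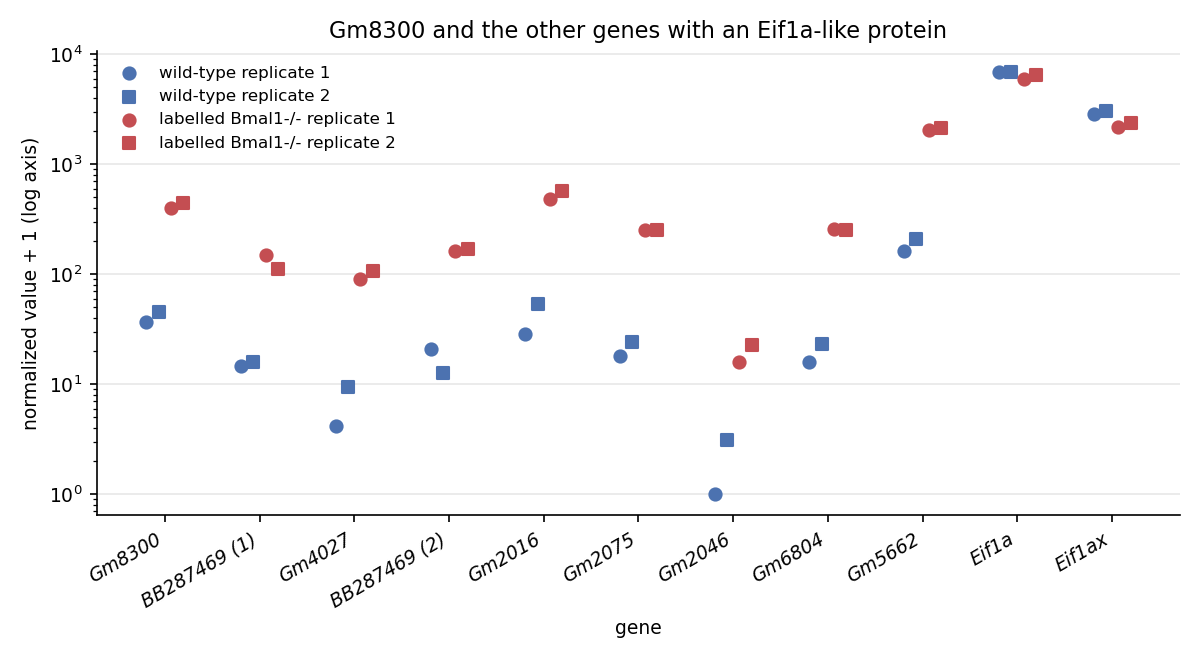
Normalized value + 1 (log axis) of Gm8300, the 8 other genes of its family on chromosome 12, Eif1a and Eif1ax in the 4 libraries (blue wild-type, red labelled Bmal1-/-; 2 genes share the name BB287469). The red points lie above the blue ones in every gene of the family on chromosome 12 and below them in Eif1a and Eif1ax.

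Zfp353, whose protein is 90.2% identical to that of Zfp352, was at 2.11 and 3.19 in wild-type mESCs and at 30.1 and 24.8 in the others. It passed the filter only through the libraries in which it was high, so that no test is given. Only 3.03% of the windows of Zfp352 were also found in Zfp353. For Cml2 the nearest relative was 1700019G17Rik (83.6% identical), with values of 48.5 and 56.3 in wild-type mESCs and 86.4 and 110 in the others. Its log2 fold change of 0.89 (adjusted p = 0.00036 from limma) was under the 2-fold threshold. Cml1, another gene of the same cluster, did not pass the test (log2 fold change 0.04, adjusted p = 0.94 from limma). Gle1, the gene that Gm6189 resembles (85.0% identical), was at 1601 and 1554 against 1465 and 1490 and did not pass either (log2 fold change -0.09, adjusted p = 0.12 from limma). Zfp810, nearest to Zfp809 (53.0% identical), had a log2 fold change of 0.59 (adjusted p = 0.006 from limma), also under the threshold. Arg1, the cytosolic arginase nearest to Arg2 (60.9% identical), held 0 to 2 reads per library, and no relative was found for Tmem92-ps. Gm10807, the neighbour of Dux in the array, had 2 and 0 reads in wild-type mESCs and 8 and 12 in the others.

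The genes lie on 9 chromosomes, and their neighbours were examined to see how local the difference was. Among the 40 genes next to the 10, taken as the 2 nearest on each side, 22 were tested, and 5 of the 40 were at 0 in all libraries. Of the 22, 2 passed the filter only through the libraries labelled Bmal1-/-, and of the other 20, 4 rose, 0 fell and 16 were not called, beside 5.75% and 1.45% of all genes tested. Of the 4, 3 lay next to Tmem92-ps on its own strand. AA623943 was at 10.5 and 13.8 in wild-type mESCs and at 241 and 226 in the others (log2 fold change 4.17, adjusted p = 7.5e-13 from limma). Gm11546 had a log2 fold change of 3.42 (adjusted p = 3.2e-10 from limma) and Gm11545 of 1.84 (adjusted p = 1.2e-12 from limma), and all 3 are annotated as pseudogenes. Only 2.03% of the windows of Tmem92-ps were also found in Gm11545. BB287469, of the family of Gm8300, overlaps Gm8300 on the same strand and rose with a log2 fold change of 3.08. The 2 that passed only through the libraries in which they were high lay near Gm6189, Fam124b (7.44 to 10.5 in wild-type mESCs, 27.2 and 29.6 in the others) and Dock10 (5.27 and 8.50 against 17.8 and 14.3). No tested neighbour of Arg2, Zfp809, Cml2 or Eif1a was called, but some had an adjusted p under 0.05 (limma) at less than 2-fold. Higher were Plekhh1 near Arg2 (log2 fold change 0.57, adjusted p = 2.7e-08), Zfp599 and Zfp810 near Zfp809 (0.26 and 0.59) and 1700019G17Rik near Cml2 (0.89). Lower were Vti1b near Arg2 (-0.22), Gm9769 near Cml2 (-0.21) and Cdo1 near Eif1a (-0.21). The 4 neighbours each of Dux, Zfp352 and Apol7b were all under the filter and were not tested. Among them 4930571N24Rik, which overlaps Apol7b on the opposite strand, had 0 and 0 reads in wild-type mESCs and 8 and 13 in the others, and Dmrta1, near Zfp352, had 0 and 2 against 9 and 5.

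Most other genes of the 2-cell state, which are not among the 10, were higher in the libraries labelled Bmal1-/-. Of 42 names on this list, 33 were matched to other genes of the table and 1 to Tmem92-ps itself, and 28 of the 33 passed the filter. Of these 28, 26 were called higher and 0 lower, but 10 had wild-type means under 10 and passed the filter only through the libraries in which they were high, so that their direction was fixed by the filter. Of the other 18, 16 were called higher and 0 lower, beside 5.75% and 1.45% of all genes tested, and all 18 had an adjusted p under 0.05 and were higher (limma), beside 24%. The median log2 fold change of the 18 was 3.50, and that of the 28 was 3.39, against -0.03 over all genes tested. The list was chosen with earlier results of these data known, so that these shares are a description only. It holds families of similar genes such as Zscan4, and Gm2016 and Gm5662 are also counted in the family of Gm8300. Windows shared with other genes were searched only for the 10 genes. Sp110, a nuclear body protein, had the highest log2 fold change of the tested genes on the list, with values of 12.6 and 13.8 in wild-type mESCs and 236 and 218 in the others (adjusted p = 6.8e-13 from limma). Zscan4c, a marker of 2-cell-like cells that protects telomeres, was at 43.2 and 60.5 against 730 and 709 (log2 fold change 3.79, adjusted p = 4.4e-15 from limma). Zscan4e (3.91) and Ubtfl1 (3.84) were close to it. Without a pseudocount Trim43b differed more, with a ratio of the counts of 23.0, but it had 3 wild-type reads in all and an exact 95% counting interval of 7.57 to 114.

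The exceptions on this list were Calcoco2 and Duxbl, which stayed under the 2-fold threshold. Calcoco2, an autophagy receptor, was at 4890 and 4821 in wild-type mESCs and at 6069 and 6171 in the others (log2 fold change 0.33, adjusted p = 6.6e-07 from limma). Duxbl, a homeobox gene related to Dux, was at 16.9 and 14.9 against 39.5 and 25.7 (log2 fold change 0.97, adjusted p = 0.012 from limma). Trim43c, one of the 10 that passed only where they were high, had values of 4.21 and 8.50 against 21.6 and 10.5. The 5 genes whose 4 values lay closest to the mean profile of the 10 genes were Gm3147, Gm7942, Iqcf1, Fam190a and C86695, at distances of 0.125 to 0.171 in centred log2 values over the 4 libraries. Their log2 fold changes were 3.06 to 3.21, which lie near the mean of the 10 genes because of how they were picked. Gm3147, Gm7942 and Iqcf1 had wild-type means under 10.

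Genes known to keep Dux or 2-cell genes silent differed by less than 2-fold, except for Lin28a. Of 42 such genes, all of which were tested, 0 were called higher and 1 was called lower, and without the fold threshold 15 were higher, 13 lower and 14 did not pass (limma). Over all genes tested, 5.75% were called higher and 1.45% lower, or 24% and 28.6% without the fold threshold. The median of the 42 log2 fold change was -0.06, against -0.03 over all genes tested. The gene called was Lin28a, an RNA-binding protein that takes part in silencing Dux at the nucleolus, which fell from 1693 and 1560 in wild-type mESCs to 563 and 535 in the others (log2 fold change -1.57, standard error 0.06, adjusted p = 2.7e-14 from limma). The next lowest were the heterochromatin protein gene Cbx3 at -0.34, the histone chaperone subunit gene Chaf1b at -0.27 and the DNA methyltransferase gene Dnmt3b at -0.26. The highest were the DNA dioxygenase gene Tet2 at 0.65, the telomere and replication timing gene Rif1 at 0.62, the DNA methyltransferase gene Dnmt3a at 0.59 and the Setdb1 cofactor gene Atf7ip at 0.42. Trim28, the corepressor that Zfp809 recruits, was at 39553 and 37983 in wild-type mESCs and at 37896 and 37148 in the others (log2 fold change -0.05, adjusted p = 0.31 from limma), and Smchd1 at a log2 fold change of -0.01 (adjusted p = 0.93).

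Genes known to act before Dux went in both directions, each by less than 2-fold. Of 6 genes, 0 were called in either direction at 2-fold, beside 5.75% called higher and 1.45% lower of all genes tested. Without the fold threshold 3 were higher and 2 lower (limma), beside 24% and 28.6% of all genes tested. Dppa2, a chromatin factor needed for Dux expression, was at 2581 and 2412 in wild-type mESCs and at 4503 and 4618 in the others (log2 fold change 0.87, standard error 0.05, adjusted p = 2.3e-12 from limma). Its partner Dppa4 was at 2284 and 2383 against 2449 and 2450 and did not pass (log2 fold change 0.07, adjusted p = 0.21 from limma). Nelfa, listed as Whsc2 and a subunit of a complex that pauses RNA polymerase II, was higher by 0.88 (adjusted p = 2.2e-12 from limma), and Top2a, a DNA topoisomerase, by 0.11 (adjusted p = 0.021). Dppa3, a maternal factor, was lower, at 1148 and 1157 against 601 and 590 (log2 fold change -0.95, adjusted p = 5.4e-11 from limma), and so was Trp53 by a log2 fold change of -0.26 (adjusted p = 1.4e-05).

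Genes in the pathway of Arg2 went in both directions. Of 19 genes of arginine and polyamine metabolism, 15 were tested, 1 was called higher and 0 lower, and without the fold threshold 4 were higher and 9 lower (limma), with a median log2 fold change of -0.19. The shares over all genes tested were 5.75% and 1.45%, and 24% and 28.6% without the fold threshold. The gene called was Slc7a2, a transporter of arginine and other cationic amino acids, which rose from 36.9 and 44.6 in wild-type mESCs to 179 and 182 in the others (log2 fold change 2.13, standard error 0.16, adjusted p = 1e-09 from limma). Below the threshold but higher were Nos1, a nitric oxide synthase that uses arginine, at 0.76, the polyamine acetyltransferase gene Sat1 at 0.58 and the arginine transporter gene Slc7a1 at 0.37. The lowest were Nos3 at -0.96, the spermine oxidase gene Smox at -0.71, the spermidine synthase gene Srm at -0.32 and Oaz1, an inhibitor of ornithine decarboxylase, at -0.28. Odc1, the ornithine decarboxylase gene whose substrate is the product of arginase, was at 17131 and 16607 against 15640 and 15595 (log2 fold change -0.11, adjusted p = 0.016 from limma). Nos3 had a log2 fold change of -1.16 when the second library labelled Bmal1-/- was left out (adjusted p = 0.048 from limma), a fit of 1 library against 2 in which the lone library is assumed to vary like the others.

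**Figure D4:**
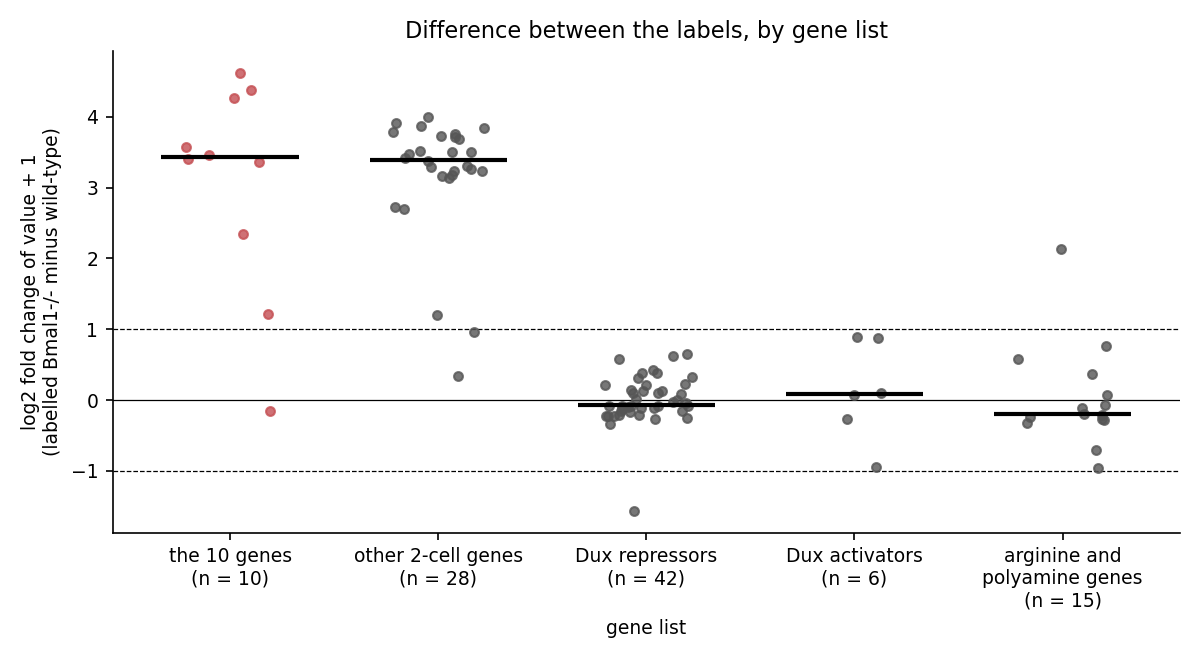
Log2 fold change of value + 1, libraries labelled Bmal1-/- minus wild-type, of each of the 10 genes and of each tested gene of 4 lists; thick bars are medians, the solid line is 0 and dashed lines mark 2-fold. The medians are 3.43 for the 10 genes, 3.39 for other 2-cell genes, -0.06 for Dux repressors, 0.09 for Dux activators and -0.19 for arginine and polyamine genes.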

How the data were processed

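mRNA of JM8 mESCs (2 wild-type and 2 Bmal1-/- libraries) was prepared by the authors as stranded libraries, sequenced as paired reads of 75 bases and aligned to mm9. Per the submitters' processing notes, bcl2fastq 2.18.0.12, cutadapt 1.9.1 and STAR 2.5.2b were used; the counting tool is not given in the sources used here. The deposited values are a normalized signal, the read count over a library factor (trimmed mean of M values, TMM) that the authors applied; whole reads were recovered for 100% of values (tolerance 0.01 of a read). The depth was 21504265 to 23329034 reads on genes. Intervals and the floor of 3 reads cover counting error only.

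All 14510 genes whose mean reached 10 were fitted with limma 3.58.1 in R 4.3.3 with an intensity trend on log2(value + 1), 2 libraries against 2, with Benjamini-Hochberg adjustment over all of them. Called means a log2 fold change beyond 1 or -1 and an adjusted p under 0.05. A fold change on this scale understates that of low genes. The scripts were tested on simulated data. The p-values measure the spread between these libraries. Alternatives were no filter or means of at least 1 or 100, pseudocounts of 0.5 and 10, median-ratio factors, equal totals, quantile normalization, no trend, a replicate block, each library left out, no fold threshold, and edgeR 4.0.16 and DESeq2 1.42.0 on whole reads.

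Relatives were sought with blastp among 22655 proteins translated from GENCODE M1 coding sequences (in place of a protein table), and a relative of a family was at least 80% identical over 80% of the protein. Windows, motifs and figures used Python 3.11.15. Of the genes in the 4 lists, those called and the 4 highest and 4 lowest were named or summarised, with neighbours, nearest relatives and the 5 most similar profiles. The 10 genes and all lists were chosen with earlier results of these data known, and the search for TAATCC, the window search, the counts of genes that reached 10 in wild-type mESCs and the test of replicates against counting error were added after values were seen.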

Additional observations from a re-analysis of the deposited data

How the results depend on the processing

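With 2 libraries per label and 1 clone, the data limit what can be said of Bmal1 itself. What can be said of Dux is limited by its 3 wild-type reads, and why it had so few was not tested. Of 110 values of the 10 genes under the alternatives, the replicate block aside, 94 moved by less than the spread between replicates, 16 moved by more and 0 changed sign. Values with a library left out cannot move by more than that spread, which is made of the same differences between replicates. They are thus among the 94 by construction. The median log2 fold change of the 10 genes was 3.07 with a pseudocount of 10, against 3.43. For Dux, edgeR gave 2.81 and DESeq2 2.91. With a mean of at least 100, 318 genes were called over the table and 14 other 2-cell genes. With no fold threshold, the counts were 7639 genes over the table, 28 Dux repressors, 5 Dux activators and 13 arginine and polyamine genes. Quantile normalization gave 2 arginine and polyamine genes (Nos3 was added, log2 fold change -1.40), and 590 higher of 1016 genes called over the table, 58.1% against 79.8%. The cause of these changes was not tested. With each library left out, between 956 and 1115 genes were called, and 1 or 2 arginine and polyamine genes, with the lone library of a label assumed to vary like the others.

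With 2 libraries of each label, the replicate block cannot change a fold change, so that the median of the 10 genes was 3.43 by construction, and the block called 1056 genes against 1046. The titles number the libraries as experiments (Exp), and whether libraries of the same number share an experiment is not given in the sources used here. The deviations of same-numbered libraries correlated at -0.02 over the 14510 genes, so that no common deviation was seen. This value cannot decide the pairing, since a shared experiment with little effect on the values would give the same correlation.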
